A study of Mus musculus with 12 samples.

Results

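The Wnt signalling family examined here comprised the secreted Wnt ligands, their Frizzled receptors and the secreted antagonists of the Sfrp and Dkk groups. Every gene symbol of the count table formed by Wnt, Fzd, Sfrp or Dkk with a member number was taken, which gave 37 of 25239 genes: 19 Wnt ligands, 10 Frizzled receptors, 4 secreted Frizzled-related proteins and 4 Dickkopf genes. The RNA came from frozen brain and liver of male C57BL6/J wild-type mice aged 24 months. Mice of the heat stress group were kept at 40 ± 0.5 °C and 60 ± 5% relative humidity for 3 hours a day over 15 days, a periodic heat wave model, and control mice were not. Each of the 4 groups held 3 libraries, so that 12 libraries were compared, heat stress with control within brain and within liver. All groups shared the age, sex and strain. The labels did not say which brain region was sampled.

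Wnt proteins are lipid-modified ligands that leave the cell with the help of the carrier Wls and bind Frizzled receptors. With the co-receptors Lrp5 and Lrp6 they stabilise beta-catenin, which then acts with TCF/LEF factors on target genes such as Axin2, while other Wnt proteins act through Frizzled receptors without beta-catenin. Sfrp proteins bind Wnt ligands, and Dkk1, Dkk2 and Dkk4 bind the Lrp co-receptors. In adult brain, Wnt7a and Wnt7b from neural cells are known for their action on the blood vessels of the blood-brain barrier, and in liver, Wnt2 and Wnt9b from endothelium of the central vein and sinusoids are known for setting the metabolic zones of the lobule.

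The promoter windows of 4 genes are given because the results below turn on them: Wnt9a and Fzd7 were the genes of lowest unadjusted p-value in brain and in liver, and Wnt3 and Wnt9b are neighbours that were high in the same control brain. Each window holds the 250 bases before the RefSeq transcription start on GRCm38.p6, written from 5′ to 3′ of the gene's strand, with CG steps in capitals. The windows lie at chr11:59306680-59306929 (Wnt9a, plus strand), chr1:59481897-59482146 (Fzd7, plus strand), chr11:103773925-103774174 (Wnt3, plus strand) and chr11:103749822-103750071 (Wnt9b, minus strand).
Wnt9a: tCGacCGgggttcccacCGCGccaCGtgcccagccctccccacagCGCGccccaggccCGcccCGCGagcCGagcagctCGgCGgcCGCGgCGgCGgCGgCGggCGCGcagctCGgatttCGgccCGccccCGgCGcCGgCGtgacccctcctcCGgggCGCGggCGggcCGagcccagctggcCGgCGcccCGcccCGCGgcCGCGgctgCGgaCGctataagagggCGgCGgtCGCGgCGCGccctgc
Fzd7: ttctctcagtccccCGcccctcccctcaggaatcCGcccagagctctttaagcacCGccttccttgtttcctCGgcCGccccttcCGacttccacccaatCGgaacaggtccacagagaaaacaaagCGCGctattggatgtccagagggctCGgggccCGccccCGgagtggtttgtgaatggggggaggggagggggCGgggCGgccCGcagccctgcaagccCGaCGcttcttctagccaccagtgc
Wnt3: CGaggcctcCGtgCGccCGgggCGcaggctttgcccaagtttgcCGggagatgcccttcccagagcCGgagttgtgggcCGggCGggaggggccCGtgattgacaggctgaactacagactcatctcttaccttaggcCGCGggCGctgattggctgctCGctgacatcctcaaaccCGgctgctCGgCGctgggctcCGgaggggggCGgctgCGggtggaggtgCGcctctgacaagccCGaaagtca
Wnt9b: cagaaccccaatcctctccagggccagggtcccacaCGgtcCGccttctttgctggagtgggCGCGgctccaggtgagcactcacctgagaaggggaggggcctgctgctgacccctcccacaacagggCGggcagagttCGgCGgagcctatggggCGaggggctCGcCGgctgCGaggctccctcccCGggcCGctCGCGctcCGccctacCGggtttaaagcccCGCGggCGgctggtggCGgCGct

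The Wnt9a window held 48 CG steps, the highest number among the 28 windows of the 25 family genes with a RefSeq window, and those of Fzd7, Wnt3 and Wnt9b held 17, 22 and 22. The family windows had a median of 22 CG steps (4 to 48), and the 32851 windows of all genes had a median of 6. The TCF/LEF core TCAAAG, searched on both strands, was found in 4 of the 28 family windows and in 13.8% of all windows. The heat shock element core GAANNTTC, searched in the same way, was found in 2 of the 28 and in 6.69% of all windows. None of the 4 printed windows held either run of letters, which describes these 250 bases only.

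Several of these genes lie side by side in mm10. Wnt9a and Wnt3a were separated by 16.2 kb and Wnt9b and Wnt3 by 24.3 kb on chromosome 11, Wnt6 and Wnt10a by 6.2 kb on chromosome 1, and Wnt10b and Wnt1 by 11.7 kb on chromosome 15. Wnt5b overlaps Fbxl14, and Wnt7b overlaps AU022754, each on the opposite strand and each with a row of its own. Wnt5b shared no exonic base with its partner, while 324 of the 4898 exonic bases of Wnt7b lay in exons of AU022754. The libraries were made with a stranded kit, but whether strand was used in counting was not given in the sources used here.

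The libraries held between 10466198 and 15609040 counted reads, and a count of 0 allowed up to 3 reads, or 0.194 to 0.283 CPM, the count scaled by the TMM-normalised total of the library within its tissue. Defining markers of neurons and hepatocytes were high in the labelled tissues: the summed level of 6 neuronal genes was 4926 to 6988 CPM in brain and 13.3 to 29.2 in liver, and that of 7 hepatocyte genes was 69230 or more in every liver library. The hepatocyte list includes Ttr, which the choroid plexus also makes. The summed level of 7 skeletal muscle genes was 334 in liver control replicate 1 and 1910 in liver heat stress replicate 2, against 1.02 to 6.47 in the other liver libraries. Brain libraries differed in markers of brain regions, with values given beside the genes concerned. Nothing in the labels says that same-numbered mice are related, and the p-values measure the spread between these libraries.

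In brain, the 37 genes together held 5485 to 10067 counts per library, and in liver 673 to 1274. With a filter that asked for about 10 counts in at least 3 libraries, 27 of the 37 genes were tested in brain and 12 in liver, and 9 were tested in neither. All 10 Frizzled genes, all 4 Sfrp genes, 12 of 19 Wnt genes and 1 of 4 Dkk genes were tested in brain. In liver, 6 Frizzled genes, 5 Wnt genes, 1 Dkk gene and 0 Sfrp genes were tested. At most 3 counts were found in every library for 5 genes in brain and 15 in liver. Wnt1, with 1, 1 and 2 counts in control brain against 0, 0 and 0 after heat stress, Wnt3a with 1, 1 and 1 against 0, 0 and 0, Wnt8a, Dkk1 and Dkk4 formed the group of 5 in brain. No difference in these was detectable at this depth. The other 5 genes under the brain filter had 50 counts or fewer: Wnt9b, described below, Wnt11 with 7, 7 and 16 counts in control brain against 3, 7 and 4 after heat stress, Wnt16 with 10, 5 and 12 against 6, 14 and 2, Wnt8b with 3, 6 and 3 against 7, 1 and 9, and Dkk2 with 5, 5 and 2 against 8, 8 and 0. The groups of these 5 genes overlapped.

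**Figure D1:**
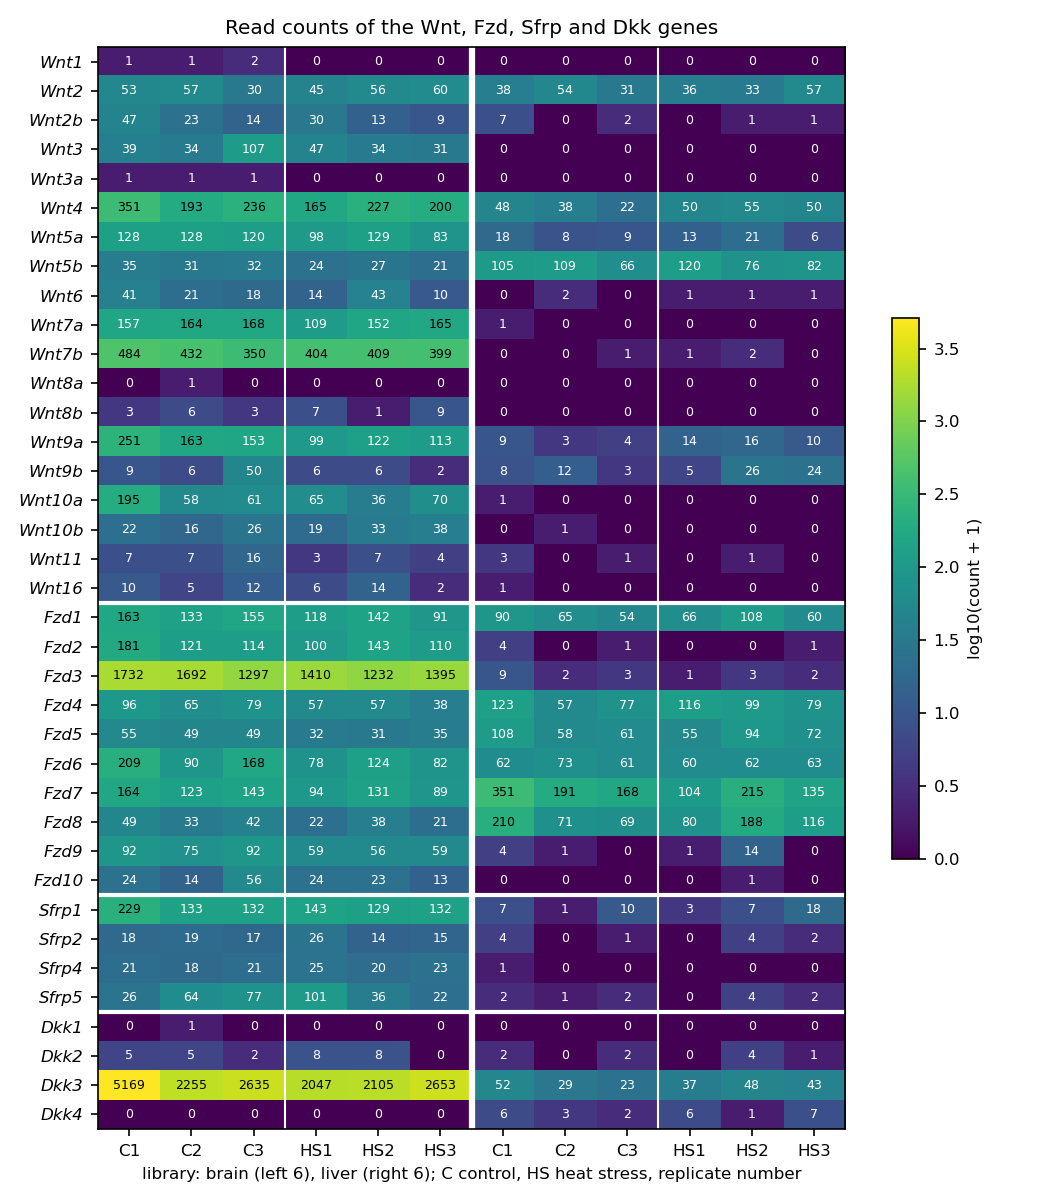
Read counts of the 37 genes (rows) in the 12 libraries (columns; C control, HS heat stress, with the replicate number), coloured by log10(count + 1), with the count written in each cell. Brain libraries are on the left and liver libraries on the right, and white lines separate the Wnt, Fzd, Sfrp and Dkk genes. Dkk3 and Fzd3 hold the highest counts in every brain library, while 15 genes hold at most 3 counts in every liver library.

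Levels of different genes were compared as CPM per kilobase of exon. Normalised separately in each tissue, control brain was led by Dkk3, a Dickkopf relative that does not act on the Lrp co-receptors in the way the others do, with 75.9 ± 25.8 (SD, n = 3). Fzd3, a receptor of axon guidance, followed with 9.67 ± 1.70 (SD, n = 3), and Wnt7b with 6.75 ± 0.957 (SD, n = 3). The ranges of these first 3 genes over the control brains did not overlap with that of the next in order. Wnt4 (4.77), Wnt9a (4.39) and Wnt7a (4.06) came next with overlapping ranges. The order of the first 4 genes was the same in heat stress brain, where Wnt7a (4.12) stood above Wnt9a (3.08), again with overlapping ranges. Fzd3 made up 37.0% of the summed Frizzled level of control brain, Wnt7b 21.5% of the Wnt level, and Dkk3 99.9% of the Dickkopf level. Among the Sfrp genes, Sfrp1 held 45.8% and Sfrp5 37.8%.

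Liver had another order. Fzd7, a receptor of stem and progenitor cells in several organs, led control liver with 3.96 ± 0.897 (SD, n = 3) CPM per kilobase, followed by Wnt5b, a ligand that acts mostly without beta-catenin, with 2.74 ± 0.540 (SD, n = 3). Wnt2 (1.44), Fzd8 (1.44), Fzd1 (1.28) and Fzd6 (1.08) formed a group with overlapping ranges. Wnt5b held 51.4% of the summed Wnt level of control liver, Wnt2 27.0% and Wnt4 12.3%, while Wnt9b held 2.46%. Fzd7 held 40.9% of the Frizzled level. Dkk4, counted in no brain library, had 6, 3 and 2 counts in control liver against 6, 1 and 7 after heat stress.

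To describe which tissue each gene belonged to, control brain was compared with control liver in a fit of all 12 libraries. Of the 28 genes tested there, 24 (85.7%) passed the call of edgeR's quasi-likelihood test (an adjusted p-value below 0.05 with a log2 fold change over 1), against 64.7% of all genes. In this family 19 were higher in brain (background 37.2%) and 5 in liver (background 27.5%). Of the 19, 16 were under the filter in liver and entered the fit only through brain, where they were high, so that their share is not read against the background. Among the 11 genes tested in both tissues, 3 were called higher in brain, Dkk3, Wnt4 and Wnt5a, and 5 in liver. The share depended on the scaling: with library totals in place of TMM factors, a setting chosen after seeing the data, the median of all genes moved from 0.24 to 1.33, a shift of 1.09 on the log2 scale, and the numbers became 21 higher in brain (background 55.7%) and 2 in liver (background 15.5%).

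Among the ligands, Wnt7b had 484, 432 and 350 counts in control brain and 0, 0 and 1 in control liver, 586-fold higher in brain with a counting interval of 105 to 23200. Wnt7a was 226-fold higher (40.4 to 8950) and Wnt10a 145-fold (25.9 to 5760), each with 1 count over the 3 control livers. Without the liver library that held this count the folds were at least 139 for Wnt7b, 47.2 for Wnt7a and 30.3 for Wnt10a. Without brain control replicate 1, Wnt10a was 88.8-fold higher. Wnt3, with 39, 34 and 107 counts in control brain and 0 in all liver libraries, was at least 27.8-fold higher in brain against a floor of 3 counts over the group, and at least 16.5-fold without brain control replicate 3. Wnt9a (log2 difference 4.01, standard error 0.32), Wnt5a (2.33) and Wnt4 (1.74) were higher in brain with counts in both tissues. These directions held with both scalings. Wnt5b was the ligand higher in liver, with 105, 109 and 66 counts against 35, 31 and 32 (log2 difference -2.60, standard error 0.24), and it was -1.52 with library totals. Wnt2, the endothelial ligand, was not called (-0.92) and stood on the other side of 0 with library totals (0.15). It was called as higher in liver without brain control replicate 2 (-1.23), without liver control replicate 1 (-1.04) and, at the threshold of 1, without liver control replicate 3.

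With TMM, 4 of the 10 Frizzled receptors were called higher in control brain, all under the filter in liver, and 4 in control liver. Fzd3 (log2 difference 7.28, standard error 0.31), Fzd2 (5.20) and Fzd9 (4.54) were higher in control brain, and Fzd10, with 24, 14 and 56 counts there and 0 in control liver, was at least 14.5-fold higher, or at least 8.61-fold without brain control replicate 3, in which markers of habenula and thalamus were high. Fzd8 (-2.56), Fzd7 (-1.81), Fzd5 (-1.66) and Fzd4 (-1.20) were higher in control liver with TMM. With library totals Fzd8 remained called (-1.43), whereas Fzd7 (-0.70), Fzd5 (-0.55) and Fzd4 (-0.10) did not pass. Fzd1 (0.01) and Fzd6 (0.11) were not called with TMM and were higher in brain with library totals (1.11 and 1.19). All 4 Sfrp genes and Dkk3 (5.46, standard error 0.30) were higher in brain with both scalings. Several of these values rest on single control livers with few counts: without liver control replicate 1 the log2 difference was 8.06 for Fzd3, 6.70 for Fzd2, 6.04 for Fzd9, 3.78 for Sfrp2 in place of 2.29 and 3.46 for Wnt2b. Fzd8, with 210, 71 and 69 counts in control liver, was -1.97 without that library, one of those with skeletal muscle transcripts. Without liver control replicate 3 that of Sfrp1 was 4.31 in place of 3.61. Without liver control replicate 1, Fzd4 lost its call (-0.97), and Wnt2b (2.06), called as higher in brain, lost its call without brain control replicate 1 (1.61) or liver control replicate 2 (1.50) or 3 (1.94).

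**Figure D2:**
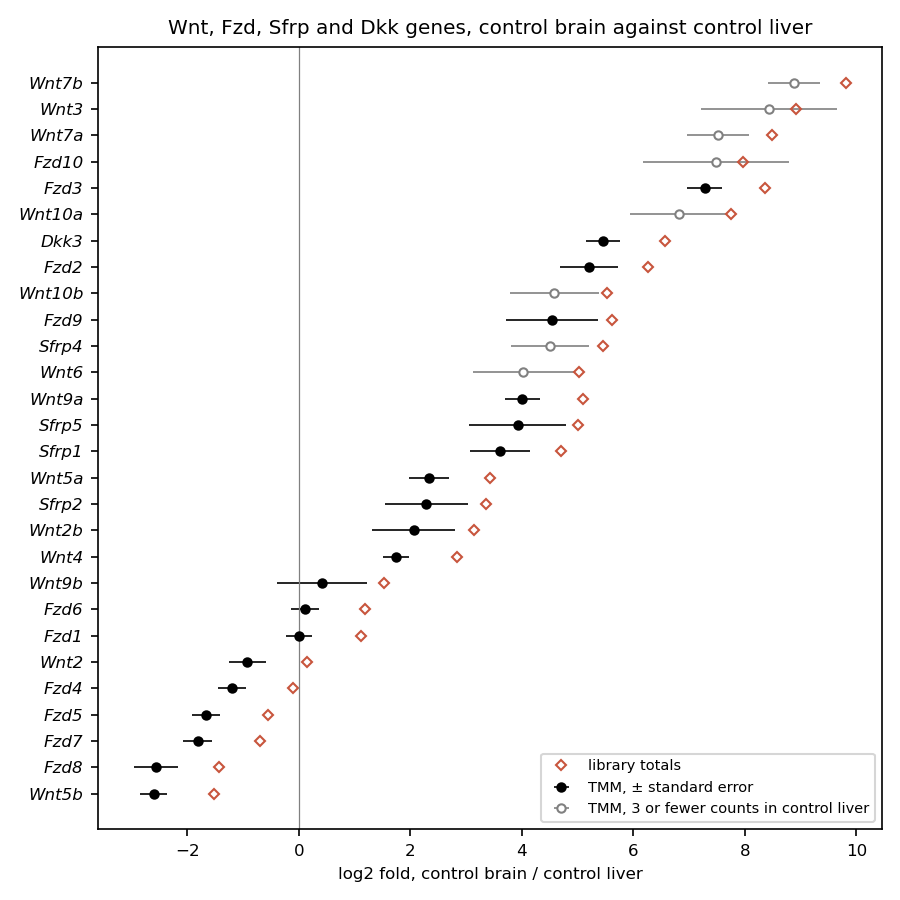
Log2 fold of control brain over control liver (x axis) for the 28 genes tested in the fit of all 12 libraries. Circles with bars show the TMM-scaled estimate and its standard error, open grey circles mark genes with 3 or fewer counts over the 3 control livers, whose fitted value depends on the prior count, and red diamonds show the estimate with library totals. Wnt5b, Fzd8, Fzd7, Fzd5 and Fzd4 lie left of 0 with both scalings, and Wnt2 changes side.

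Heat stress was then compared with control in brain. Of the 27 family genes tested, 0 passed that call, and percent called over all 14806 genes was 0 as well. DESeq2 called 0 of the 13 family genes to which it gave an adjusted p-value, against 0.25% of all genes. At an unadjusted p-value under 0.05 there was 1 family gene, Wnt9a, which is 3.7% of those tested against 20.1% of all genes, and DESeq2 gave 2 of 36, Wnt9a and Wnt9b, against 13.8% of all genes. The estimates were below 0 for 18 of 27 genes (66.7%, against 50.3% of all genes), with a median log2 fold change of -0.143 against -0.003. The median lay between -0.239, without heat stress replicate 2, and -0.093, without control replicate 1. All heat stress libraries lay below all control libraries for 4 genes (14.8%, background 12%), which were Wnt9a, Fzd4, Fzd5 and Fzd9, and above for 1 (3.7%, background 12.9%), which was Sfrp4. In bulk tissue, fewer cells of a type and less RNA per cell cannot be told apart in any of these values.

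**Figure D3:**
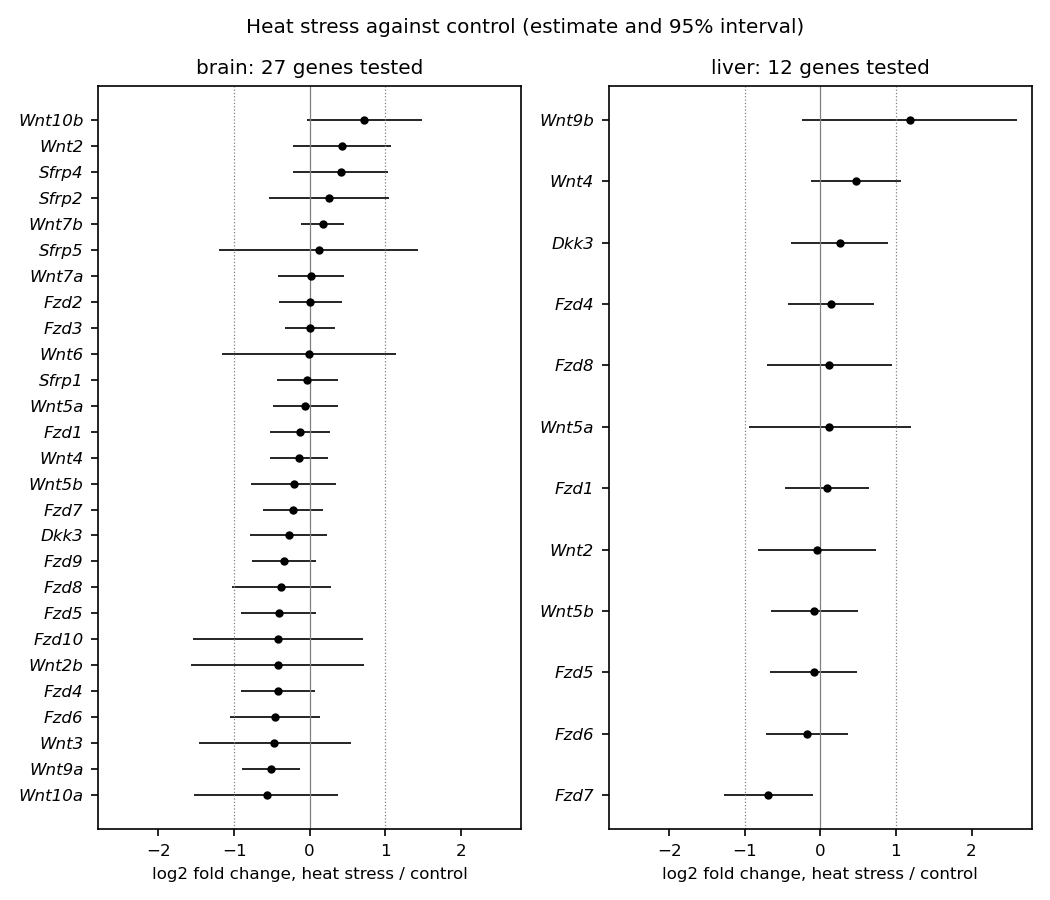
Log2 fold change of heat stress over control (x axis) for each tested gene, with its 95% interval from edgeR, in brain (27 genes, left) and liver (12 genes, right), ordered by the estimate. Dotted lines mark 1 and -1. The interval lies wholly below 0 for Wnt9a in brain and for Fzd7 in liver, and includes 0 for the other genes.

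Wnt9a, a ligand known from joint development, had 17.2, 14.2 and 12.4 CPM in the control brains and 9.14, 10.9 and 10.7 in the heat stress brains. All heat stress brains were below all control brains. The log2 fold change was -0.51 (standard error 0.17, 95% interval -0.90 to -0.13, edgeR quasi-likelihood adjusted p = 0.176, unadjusted 0.0142). It ranged from -0.62 to -0.38 with a library left out, and its p-value placed it at rank 1199 of 14806 genes. Its neighbour Wnt3a was at or under 1 count in every library.

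Of the other 3 leading ligands of brain, Wnt7b had 33.2, 37.7 and 28.3 CPM in control against 37.3, 36.6 and 37.7 after heat stress. Its groups overlapped, and the log2 fold change was 0.17 (95% interval -0.11 to 0.45), or 0.07 to 0.27 with a library left out. Wnt7a had 10.8, 14.3 and 13.6 against 10.1, 13.6 and 15.6, with a log2 fold change of 0.02 (-0.42 to 0.46). Wnt4, which acts in kidney, gonad and nervous system development, had 24.1, 16.8 and 19.1 against 15.2, 20.3 and 18.9 (-0.14, interval -0.53 to 0.24). The intervals of these 3 genes exclude a change of 1 or more on the log2 scale in either direction. Wnt10b, a ligand of the beta-catenin branch, had the highest estimate in brain, 0.72 (-0.04 to 1.49), from 1.51, 1.40 and 2.11 CPM in control against 1.75, 2.96 and 3.59 after heat stress, and the groups overlapped at heat stress replicate 1. Wnt2 had 3.63, 4.97 and 2.43 against 4.16, 5.02 and 5.67, with a log2 fold change of 0.43 (-0.22 to 1.08). With a library left out, this value lay between 0.20 and 0.69.

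Of the 10 Frizzled receptors, 8 had estimates below 0 in brain (80%, against 50.3% of all genes), with a median of -0.357, and 0 had an unadjusted p-value under 0.05 in edgeR (against 20.1% of all genes) or in DESeq2. Fzd4, the receptor through which Norrin acts on vessels of the retina, had 6.58, 5.67 and 6.40 CPM in control against 5.26, 5.11 and 3.59 after heat stress (log2 fold change -0.42, 95% interval -0.91 to 0.07). Fzd5 had 3.77, 4.28 and 3.97 against 2.96, 2.78 and 3.31 (-0.41, interval -0.91 to 0.09). Fzd9, found in the hippocampus among other sites, had 6.31, 6.55 and 7.45 against 5.45, 5.02 and 5.57 (-0.34, interval -0.76 to 0.08). The groups of these 3 genes did not overlap (30% of the receptors, background 12%), and their unadjusted p-values in edgeR's quasi-likelihood test were 0.0863, 0.0975 and 0.0995. Fzd6, a planar polarity receptor, had 14.3, 7.85 and 13.6 against 7.20, 11.1 and 7.74, with overlap (-0.46, interval -1.05 to 0.13). With a library left out, the estimate ranged from -0.52 to -0.26 for Fzd4, -0.69 to -0.31 for Fzd6 and -0.68 to -0.24 for Fzd8. Fzd3 gave 119, 148 and 105 against 130.2, 110.4 and 132 and a log2 fold change of 0.00 (-0.32 to 0.33). The estimates of Fzd2 and Fzd3 took either sign across the alternatives.

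The 7 markers of endothelium were measured beside these values. All 7 had an unadjusted p-value under 0.05 and were lower in heat stress brain (edgeR, median log2 fold change -1.04), where 10% of all genes were lower at that threshold. Their summed level was 118 to 234 CPM in control and 77.2 to 97.4 in heat stress. None of the 7 was at or under 3 counts in every brain library. The part of the vascular markers in the values of Fzd4 and the other receptors was not tested.

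Among the antagonists in brain, Sfrp4 was the gene whose heat stress libraries were all above the controls, with 2.31, 1.79 and 2.17 CPM against 1.44, 1.57 and 1.70. The log2 fold change was 0.41 (95% interval -0.22 to 1.04, edgeR quasi-likelihood adjusted p = 0.424, unadjusted 0.174) on 18 to 25 counts a library. Sfrp1 had 15.7, 11.6 and 10.7 in control against 13.2, 11.6 and 12.5 (-0.03, interval -0.43 to 0.37). Among the genes tested, Sfrp5 varied most in heat stress brain, with 9.33, 3.23 and 2.08 against 1.78, 5.59 and 6.23 in control. Its interval ran from -1.20 to 1.43. Dkk3 had 354, 197 and 213 in control against 189, 188.5 and 250.5 after heat stress (-0.28, interval -0.79 to 0.23), and 0.03 without control replicate 1.

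**Figure D4:**
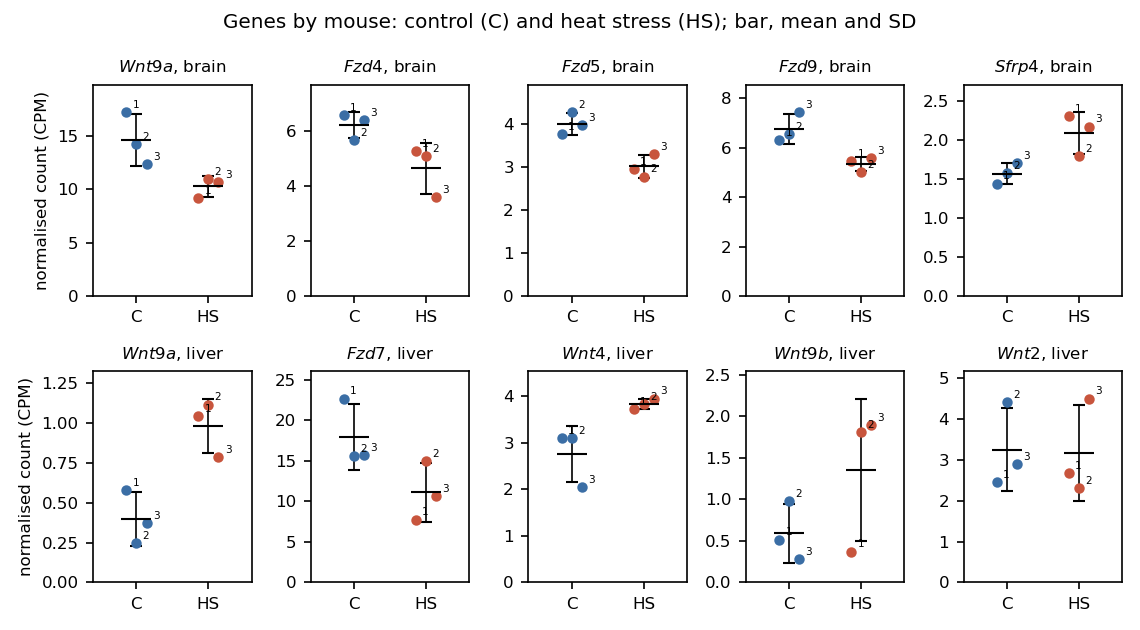
CPM (y axes from 0) of single genes in each mouse, control (C, blue) and heat stress (HS, red), with the replicate number beside each point and the mean and SD as bars. Heat stress brains lie below control brains for Wnt9a, Fzd4, Fzd5 and Fzd9 and above for Sfrp4. Heat stress livers lie above control livers for Wnt9a and Wnt4 and below for Fzd7, and overlap for Wnt9b and Wnt2.

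Single control brains set several of the other estimates. Wnt3 had 2.67, 2.97 and 8.66 CPM in control brain against 4.34, 3.05 and 2.93 after heat stress. Fzd10 had 1.65, 1.22 and 4.53 against 2.22, 2.06 and 1.23. Wnt9b, under the filter in brain, had 9, 6 and 50 counts in control against 6, 6 and 2 after heat stress. All 3 genes were high in control replicate 3, in which the summed level of 8 markers of habenula and thalamus was 720.1, against 215 and 265 in the other controls and 188 to 436 in heat stress. Markers of choroid plexus (2497) and oligodendrocytes (9971) were highest in that brain library too. Without that library the log2 fold changes of Wnt3 and Fzd10 were 0.29 and 0.34 in place of -0.47 and -0.42. The part of the sampled region in these differences was not tested.

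Control brain replicate 1 stood apart in other genes. Wnt10a had 13.4, 5.06 and 4.94 CPM in control against 6.00, 3.23 and 6.61 after heat stress, and Wnt2b 3.22, 2.01 and 1.13 against 2.77, 1.16 and 0.850. Together with Dkk3, these were highest in control replicate 1, where the summed level of 8 markers of cortex and hippocampus was 1791, against 1145 and 994 in the other controls and 853 to 1201 in heat stress. The pattern was not particular to this list: markers of endothelium (234), neurons (6988) and smooth muscle (29.8) were also highest in that brain library. Without control replicate 1, the log2 fold changes of Wnt10a and Wnt2b were 0.08 and 0.03 in place of -0.57 and -0.42. Markers of striatum were higher in heat stress brain for 8 of 8 genes (425 to 780.2 in control, 784 to 1666 in heat stress). Those of choroid plexus were lower for 4 of 8 (1256 to 2497 against 262 to 1134). Both counts are at an unadjusted p-value under 0.05 in edgeR, which 20.1% of all genes passed, 10% being lower. The part of these differences in the family's values was not tested.

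**Figure D5:**
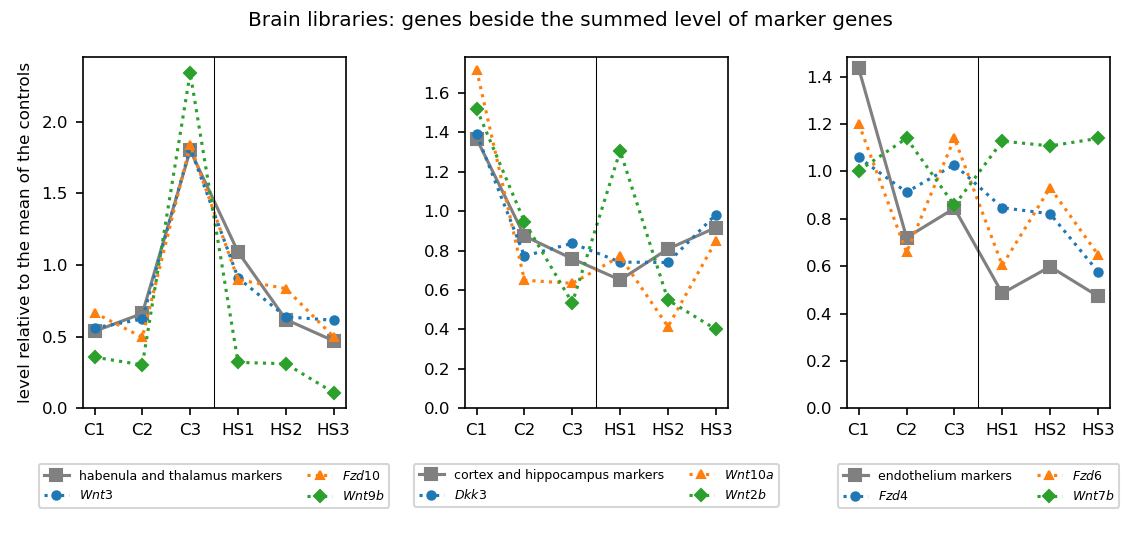
Level of single genes (dotted) and summed level of marker genes (grey squares) in the 6 brain libraries, each divided by its mean over the 3 control libraries (y axes from 0). Wnt3, Fzd10, Wnt9b and the habenula and thalamus markers are highest in control replicate 3, Dkk3, Wnt10a, Wnt2b and the cortex and hippocampus markers in control replicate 1, and the endothelium markers are lower in all heat stress libraries than in any control. The endothelium markers are also highest in control replicate 1.

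In liver, 12 family genes were tested between heat stress and control, and 0 were called by edgeR, as were 0% of all 12296 genes. DESeq2 called 0 of the 10 family genes to which it gave an adjusted p-value, against 0.369% of all genes. At an unadjusted p-value under 0.05 there was 1 gene, Fzd7, with either tool, which is 8.33% of the family in edgeR against 5.84% of all genes (DESeq2, 1 of 31 against 3.51%). The median log2 fold change of the 12 genes was 0.105 against 0.011 for all genes, with 7 above 0 (all genes, 51.8%) and 5 below, and the median lay between -0.027 and 0.213 with a library left out. Fzd7 was the gene whose heat stress libraries were all below the controls (8.33%, background 5.73%), and Wnt4 the gene whose heat stress libraries were all above (8.33%, background 5.38%).

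Fzd7, the leading Frizzled of liver, had 22.7, 15.6 and 15.7 CPM in control liver against 7.74, 15.0 and 10.7 after heat stress. The highest heat stress library lay just below the lowest control library. The log2 fold change was -0.69 (standard error 0.27, 95% interval -1.28 to -0.10, edgeR quasi-likelihood adjusted p = 0.799, unadjusted 0.0262), and -0.78 without both libraries that held skeletal muscle RNA. The column names of 3 liver libraries carry the suffix 2nd, whose meaning is not given, 1 in control and 2 in heat stress. With the suffix as a covariate the log2 fold change of Fzd7 was -0.56. Ratios of means within the suffix (1 control against 2 heat stress libraries) and without it (2 against 1) were -0.75 and -0.35 on the log2 scale, with a sign that the separation of the groups fixes. In brain its log2 fold change was -0.22 (interval -0.62 to 0.18).

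The other liver receptors had estimates near 0. Fzd8 had 13.6, 5.79 and 6.43 CPM in control against 5.96, 13.1 and 9.15 after heat stress, and its 2 highest values were those of control replicate 1 and heat stress replicate 2, the libraries with skeletal muscle transcripts. Its log2 fold change of 0.12 (interval -0.71 to 0.95) was 0.38 without both libraries, and the part of the muscle RNA was not tested. The log2 fold changes of Fzd4 (0.14), Fzd1 (0.09), Fzd5 (-0.09) and Fzd6 (-0.18) had intervals between -0.72 and 0.71. Fzd9 had 4, 1 and 0 counts in control liver against 1, 14 and 0 after heat stress, with the highest count in heat stress replicate 2. Fzd3, the receptor that led in brain, had 9, 2 and 3 counts in control against 1, 3 and 2 after heat stress. Liver control replicate 1, which held the 9 counts, also had the highest summed level of neuronal markers, 29.2 against 13.3 to 18.5 CPM, and the largest total.

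Among the liver ligands, Wnt4 had 3.10, 3.10 and 2.05 CPM in control against 3.72, 3.83 and 3.94 after heat stress. The groups did not overlap, and the log2 fold change was 0.47 (standard error 0.27, 95% interval -0.13 to 1.07, edgeR quasi-likelihood adjusted p = 0.93, unadjusted 0.112). The endothelial ligand Wnt2 had 2.45, 4.40 and 2.89 against 2.68, 2.30 and 4.50 (-0.04, interval -0.82 to 0.74), and the other, Wnt9b, had 8, 12 and 3 counts against 5, 26 and 24, where heat stress replicate 1 lay among the controls. The log2 fold change of Wnt9b, 1.18 (95% interval -0.24 to 2.60, edgeR quasi-likelihood adjusted p = 0.912), was the highest of the 12. It ranged from 0.86 to 1.71 with a library left out. Ratios of its means on the log2 scale were 0.19 within the suffix 2nd and 1.94 without it. The other 6 markers of central vein and sinusoid endothelium summed to 94.1, 135.4 and 130.9 in control against 136, 116 and 129 after heat stress. Wnt5b, the leading ligand, had 6.78, 8.89 and 6.15 against 8.93, 5.30 and 6.47 (-0.08, interval -0.65 to 0.50).

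Wnt9a stood under the filter in liver, with 9, 3 and 4 counts in control against 14, 16 and 10 after heat stress, or 0.581, 0.245 and 0.373 against 1.04, 1.12 and 0.789 CPM. All heat stress livers were above all control livers. The highest value of each group came from control replicate 1 and heat stress replicate 2, the libraries with skeletal muscle transcripts. The remaining livers held 3 and 4 counts in control against 14 and 10 after heat stress. The part of the muscle RNA was not tested. The log2 fold change was 1.24 (standard error 0.56, adjusted p = 0.883 and unadjusted p = 0.042) in edgeR's quasi-likelihood test without a filter, and 1.22 in the fit of all 12 libraries (adjusted p = 0.353). In DESeq2 its unadjusted p-value was 0.102.

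The antagonists were sparse in liver. Dkk3 had 52, 29 and 23 counts in control against 37, 48 and 43 after heat stress (log2 fold change 0.26, interval -0.39 to 0.90). Sfrp1 had 7, 1 and 10 against 3, 7 and 18, while Sfrp2 and Sfrp5 stayed at 4 counts or fewer and Sfrp4 at 1 or fewer in every liver library. The brain ligands Wnt7a and Wnt7b had at most 1 and 2 counts. A change in these was not detectable at this depth.

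The heat effect in liver was set against that in brain in the fit of all 12 libraries. Of 28 family genes, 0 differed at an adjusted p-value under 0.05 in edgeR, where 1 gene of 15824 did (0.00632%), and DESeq2 called 0 of the 17 family genes with an adjusted p-value, against 0.33% of all genes. With an unadjusted p-value below 0.05 there were 2, Wnt9a and Wnt9b, with either tool (7.14% in edgeR, against 9.64% of all genes, and 2 of 37 in DESeq2, against 8.28%). The difference of effects, liver minus brain, was 1.74 for Wnt9a (standard error 0.44, edgeR quasi-likelihood adjusted p = 0.504). For Wnt9b it was 3.15 (standard error 1.19, adjusted p = 0.516) and 1.62 without brain control replicate 3. Wnt9a was the 1 of these 28 genes whose groups separated in opposite directions in the 2 tissues (background 0.878%, or 0.417% for genes lower in brain and higher in liver).

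The 62 other pathway genes, in 5 lists, were examined beside the family. In brain 53 were tested, 0 were called by edgeR, and 11 had an unadjusted p-value under 0.05 (20.8%, against 20.1% of all genes). All 11 were lower in heat stress, where 10% of all genes were lower at that threshold. The estimates of 39 of the 53 were below 0, with a median of -0.159 against -0.003 over all genes. In the same brains the 7 endothelium markers (median -1.04) and 4 of the 8 choroid plexus markers (median of the 8, -1.23) were lower at that threshold, and their part in these values was not tested. Among co-receptors, Lrp5 had 11.2, 9.69 and 10.8 CPM in control against 6.28, 5.73 and 5.10 after heat stress (log2 fold change -0.89, standard error 0.17, edgeR quasi-likelihood adjusted p = 0.17). All heat stress brains lay below all control brains for 9 of the 53 genes (17%, background 12%) and above for 1 (1.89%, background 12.9%), Csnk1a1 (0.16), named here after its values were seen. Lrp6 (-0.26) and the R-spondin receptor Lgr6 (-1.03) were lower in all heat stress brains too. In the nucleus and cytoplasm, the beta-catenin partner Bcl9 had 56.7, 48.8 and 50.8 against 40.7, 35.1 and 39.2 (-0.44), and Bcl9l gave -0.28, while Lef1 (-1.49) and the Frizzled adaptor Dvl3 (-0.51) overlapped between the groups.

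Of the remaining genes of the 11, the feedback inhibitor Nkd1 (-0.37) separated the groups in brain, and the target Axin2 (-0.35), Igfbp4 (-0.39) and Sostdc1 (-1.13) did not. Axin2, often used as a readout of beta-catenin signalling, had 27.9, 20.2 and 25.9 CPM in control against 20.0, 17.3 and 20.97 after heat stress. Lef1 had 10.5, 5.41 and 19.7 against 5.54, 4.39 and 2.74 and was highest in control replicate 3, the library with high habenula and thalamus markers. Sostdc1 had 10.2, 8.03 and 14.7 against 4.43, 8.33 and 2.17, where the 8 choroid plexus markers summed to 1541, 1256 and 2497 against 654, 1134 and 262, with the highest and the lowest library in common. The log2 fold changes of Ctnnb1, the gene of beta-catenin, and of Wls were -0.06 and 0.04 in brain.

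In liver, 45 of these genes were tested, 0 were called by edgeR, and 3 had an unadjusted p-value under 0.05 (6.67%, against 5.84% of all genes), all higher in heat stress, where 2.97% of all genes were higher at that threshold. They were Myc with 1.55, 2.04 and 5.22 CPM in control against 7.15, 9.41 and 7.73 after heat stress (1.49), Tnfrsf19 (0.67) and the Sfrp relative Frzb (1.09). The groups of these 3 genes did not overlap (3 of 45 higher, 6.67%, background 5.38%). Of the 8 targets of Wnt signalling around the central vein, 0 had an unadjusted p-value under 0.05 in edgeR, with a median log2 fold change of 0.266, and 6 lay above 0. Tbx3, the one of smallest p-value, had 28.98, 25.6 and 18.2 CPM in control against 12.4, 22.7 and 16.2 after heat stress (-0.51), and Lect2 also lay below 0 (-0.23). Glul, the glutamine synthetase of pericentral hepatocytes, had 653, 734 and 582 against 709.9, 836 and 875 (0.30), and Cyp2e1 gave 0.40. Axin2 (-0.30) and Lgr5 (-0.35) lay on the other side of 0, and Lgr5, with 6.97, 7.50 and 7.64 against 6.25, 5.09 and 5.99, was lower in all heat stress livers, 1 of 2 such genes with Ctnnb1 (4.44%, background 5.73%), at an unadjusted p-value of 0.116 in edgeR's quasi-likelihood test. Ctnnb1 had 195, 176.5 and 178 CPM in control liver against 145.5, 155 and 125 after heat stress (-0.37, 95% interval -0.75 to 0.02, edgeR quasi-likelihood adjusted p = 0.875).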

How the data were processed

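RNA-seq was performed on 12 brain and liver libraries. According to the submitters' processing notes, reads were checked with FastQC 0.11.9, trimmed with Trimmomatic 0.39, aligned to mm10 with HISAT2 2.2.1, counted with featureCounts of Subread 2.0.1 and compared with DESeq2 1.22.2. The study's methods also describe another route, where Tophat2 served as the aligner and HTSeq produced the counts. The annotation release and the use of strand were not given in the sources used here. The authors deposited raw counts per gene symbol for each library, without normalization, and these counts were the values used. The 3 deposited tables of the authors' own comparisons, with log2 fold changes and p-values, were not used.

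Heat stress was compared with control in the 6 libraries of each tissue with edgeR 4.0.16 in R 4.3.3 (TMM, filterByExpr with a minimum count of 10 and total of 15, robust quasi-likelihood test, Benjamini-Hochberg over all genes tested). A gene was called at an adjusted p-value under 0.05 and an absolute log2 fold change above 1. The difference of effects, with no minimum fold, and control brain against control liver were fitted on all 12 libraries, taken as independent. CPM, the scaled counts of the text, used TMM-scaled totals of each tissue. Depth was 10466198 to 15609040 counts. Counting intervals and floors of 3 counts cover counting error only, and the 95% intervals of fold changes come from edgeR's fit and include the spread between libraries. Gene positions and exon lengths came from GENCODE M21 on GRCm38, the assembly of mm10.

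The members and gene lists were chosen with earlier results of these data known. All 37 genes were accounted for, and of the 5 lists of further pathway genes up to 4 per list and tissue were named by smallest unadjusted p-value, beside fixed ones such as Axin2 and Lgr5. Of the 15 marker lists, those that touched a result are given in the text. The tests were tried on simulated data. Alternatives were DESeq2 1.42.0, other scalings and filters, a replicate block, the suffix 2nd as a covariate (liver comparison only), and libraries left out.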

Additional observations from a re-analysis of the deposited data

Results flagged for a closer look

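Wnt9a was singled out because its groups separated in opposite directions in the 2 tissues. All 3 heat stress brains lay below all 3 control brains, and all 3 heat stress livers lay above all 3 control livers. This pattern was found in 0.417% of the 15824 genes in the fit of all 12 libraries. Because the gene was picked after its values were seen, this share describes how common the pattern is and tests nothing. The difference of effects, liver minus brain, was 1.74 on the log2 scale (standard error 0.44, edgeR quasi-likelihood adjusted p = 0.504, unadjusted 0.00159). The difference lay between 1.45 and 2.23 with a library left out and between 1.72 and 1.80 with the other alternatives run for it, and the adjusted p-value lay between 0.0991 and 0.773. The suffix 2nd as a covariate and the removal of both libraries with skeletal muscle RNA were run within liver only. This difference was not put through either of them. The liver values rest on 3 to 16 counts a library, and the highest of each group came from a library with skeletal muscle RNA.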

How the results depend on the processing

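No family gene was called between heat stress and control, or in the difference of effects, under any alternative tried, and the number that differed between control brain and control liver lay between 23 and 27. The number at an unadjusted p-value under 0.05 (edgeR) in brain was 0 without control replicate 1 and 3 without control replicate 2 or heat stress replicate 2. Same-numbered mice did not deviate together (correlations of -0.272, 0.173 and -0.178 in brain and -0.513, -0.477 and 0.084 in liver), so that a replicate block has no basis in the pairing. With the block, 0 family genes were called in either tissue (over all genes, 0 in brain and 1 in liver), the log2 fold change of Wnt9a in brain was -0.50 and that of Fzd7 in liver -0.71, and Sfrp5 in brain turned to -0.02. Without a filter Fzd2 (-0.01) and Fzd3 (-0.01) in brain turned, and with all 12 libraries Fzd3 was 0.00. Without both liver libraries that held skeletal muscle RNA, Fzd1 (-0.11), Wnt5a (-0.05) and Wnt5b (0.02) turned, and with the suffix 2nd as a covariate Fzd5 (0.04). With library totals, chosen after seeing the data, Wnt2 between the control tissues turned to 0.15. The causes were not tested.

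With a library left out, the log2 fold changes of these genes took both signs or reached 0. In brain they ranged from -0.45 to 0.03 for Dkk3, -0.27 to 0.00 for Fzd1, -0.73 to 0.34 for Fzd10, -0.13 to 0.13 for Fzd2, -0.10 to 0.14 for Fzd3, -0.14 to 0.15 for Sfrp1, -0.09 to 0.43 for Sfrp2, -0.76 to 0.48 for Sfrp5, -0.82 to 0.08 for Wnt10a, -1.08 to 0.03 for Wnt2b, -0.76 to 0.29 for Wnt3, -0.26 to 0.01 for Wnt4, -0.22 to 0.06 for Wnt5a, -0.87 to 0.33 for Wnt6 and -0.12 to 0.18 for Wnt7a. In liver they ranged from -0.16 to 0.19 for Fzd1, -0.06 to 0.29 for Fzd4, -0.25 to 0.06 for Fzd5, -0.20 to 0.61 for Fzd8, -0.39 to 0.24 for Wnt2, -0.30 to 0.43 for Wnt5a and -0.32 to 0.09 for Wnt5b. Between the control tissues they ranged from -0.06 to 0.14 for Fzd1, -0.11 to 0.29 for Fzd6 and -1.17 to 0.91 for Wnt9b. With 3 libraries a group an exact permutation test of 1 gene cannot go below p = 0.1, and genes with at most 3 counts in every library allow no statement on a change.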

Other observations

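The spread between mice of 1 group was large for some genes of the family. The highest control brain exceeded the lowest more than 2-fold for 6 of the 27 genes tested, with a median ratio of 1.39 and a highest ratio of 3.71. In heat stress brain the number was 5 of 27, with a median of 1.47. In liver it was 2 of 12 in control (median 1.54) and 3 of 12 in heat stress (median 1.64, highest 5.08).

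Summed over each class, the Wnt level was 113 to 126 CPM in control brain and 105.3 to 117 in heat stress brain, and the Frizzled level 178 to 209 against 177 to 184. In liver the Wnt level was 13.0 to 18.5 in control and 16.2 to 18.2 in heat stress, and the Frizzled level 42.2 to 62.0 against 36.0 to 54.6. The groups overlapped in all 4 sums, which were not tested.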
